A study of Mus musculus with 15 samples.

Results

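The 32 genes described here, *Csf1r*, *Cx3cr1*, *P2ry12*, *Tmem119*, *C1qa*, *C1qb*, *C1qc*, *Aif1*, *Itgam*, *Trem2*, *Tyrobp*, *Ctss*, *Fcrls*, *Gpr34*, *Siglech*, *Sall1*, *Fcer1g*, *Ly86*, *Laptm5*, *Cd68*, *Cd53*, *Ptprc*, *Olfml3*, *Selplg*, *Mpeg1*, *Hpgds*, *Cd33*, *Irf8*, *Spi1*, *Fcgr3*, *Lyz2* and *Gpr141*, are known for their expression in microglia, the resident macrophages of the brain. They were taken by symbol from a list, and 32 of 32 were found among the 32657 genes of the count tables. The main result was that 28 of these 32 genes were depleted at least 2-fold from ribosome-bound RNA of tagged dentate gyrus neurons in wild-type mice. Of the 32, 31 could be tested, and 11.4% of all 15011 genes tested were depleted by the same rule. Between ventral and dorsal dentate gyrus, no listed gene passed the edgeR test with all libraries, the count filter, TMM scaling and no replicate block. Under other settings up to 2 did. Over all genes, 15.3% passed that edgeR test in wild-type and 17.0% in knockout mice. *Gpr141* was read in every wild-type library but in no knockout library.

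Microglia enter the brain from the yolk sac early in development and maintain themselves there by signalling through the colony-stimulating factor receptor encoded by *Csf1r*. They survey the tissue with fine processes, sense nucleotides and the neuronal chemokine fractalkine, take up debris and synaptic material tagged by complement, and signal damage through the receptor TREM2 and its adaptor TYROBP. PU.1, encoded by *Spi1*, IRF8 and SALL1 are transcription factors that set and keep this identity. Most of the genes are also used by other macrophages.

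The study asked what the serotonin receptor 4 gene *Htr4* does in the hippocampus, and its RNA-seq data comprised 15 mouse libraries in 6 groups. Translating ribosome affinity purification (TRAP) was used on ventral dentate gyrus (vDG): Cre removes a stop cassette so that ribosomes carry EGFPL10a, the tagged ribosomal protein L10a, and an antibody to EGFP then pulls down (IP) the RNA on those ribosomes. The wild-type (WT) mice were Drd3-Cre KI198::Rosa26-fsTRAP and the knockout (cKO) mice Drd3-Cre KI198::Rosa26-fsTRAP::Htr4-Floxed, so both carried the Cre driver and the ribosome tag, and only the floxed *Htr4* allele differed by label. All mice were 8 to 12 weeks old. The groups were WT vDG IP (n = 3), WT vDG input (n = 3), cKO vDG IP (n = 2), cKO vDG input (n = 2), WT dorsal dentate gyrus (dDG) input (n = 3) and cKO dDG input (n = 2). By label, an IP library pooled 3 mice and an input library, which is RNA of the whole tissue, pooled 2 mice. The methods instead describe 1 male and 1 female per pool and input RNA taken from the lysate before the IP, and this conflict was not resolved. The study describes the Cre line as acting mainly in mature granule cells and mossy cells of the dentate gyrus and in excitatory neurons of the CA fields. One label field calls the input tissue cortex while the titles call it dentate gyrus. Summed levels of 8 granule cell genes of 1751 to 3423 CPM (counts-per-million, scaled by TMM factors) were found in all input libraries. No cortex library was there to compare, so these sums do not settle which label is right.

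*Htr4* itself gave 339, 403 and 395 counts in the WT IP against 635 and 634 in the cKO IP. In the vDG input it gave 386, 540 and 353 counts in WT and 763 and 748 in cKO, and in the dDG input 755, 585 and 758 in WT and 1195 and 1101 in cKO. Counts were thus higher in each cKO group. The floxed segment is exon 5 alone and the counts cover the whole gene, so they do not check the deletion.

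Library depth ran from 19039295 to 30451430 counts assigned to genes, of which the 32 microglial genes held 321 to 512 in an IP library and 1879 to 3485 in an input library. A count of 0 allows up to 3 counts, which is 0.0985 to 0.158 CPM, and this limit, like the counting intervals given here, covers counting error only. One library of each WT input group stood apart. The summed level of the 32 genes was 133, 90.9 and 88.2 CPM in WT vDG input replicates 1, 2 and 3, and replicate 1 was the highest for 30 of the 32 genes. In WT dDG input the sums were 152, 98.9 and 99.8 CPM, with replicate 1 the highest for 23 of 32. The cKO sums were 93.3 and 71.4 CPM in vDG input and 84.4 and 87.8 CPM in dDG input. WT vDG input replicate 1 was not the highest for astrocyte genes, which summed to 927 CPM there against 1047 and 1056 CPM, or for oligodendrocyte genes. It was also the highest for several lists that do not include the 32 genes: the other microglia-enriched genes summed to 73.1 CPM against 62.7 and 58.7 CPM, other complement genes to 15.9 CPM against 11.4 and 10.4 CPM, and endothelial genes to 13.1 CPM against 11.8 and 7.60 CPM. In bulk tissue, fewer microglia and less RNA of these genes per microglial cell cannot be told apart.

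**Figure D1:**
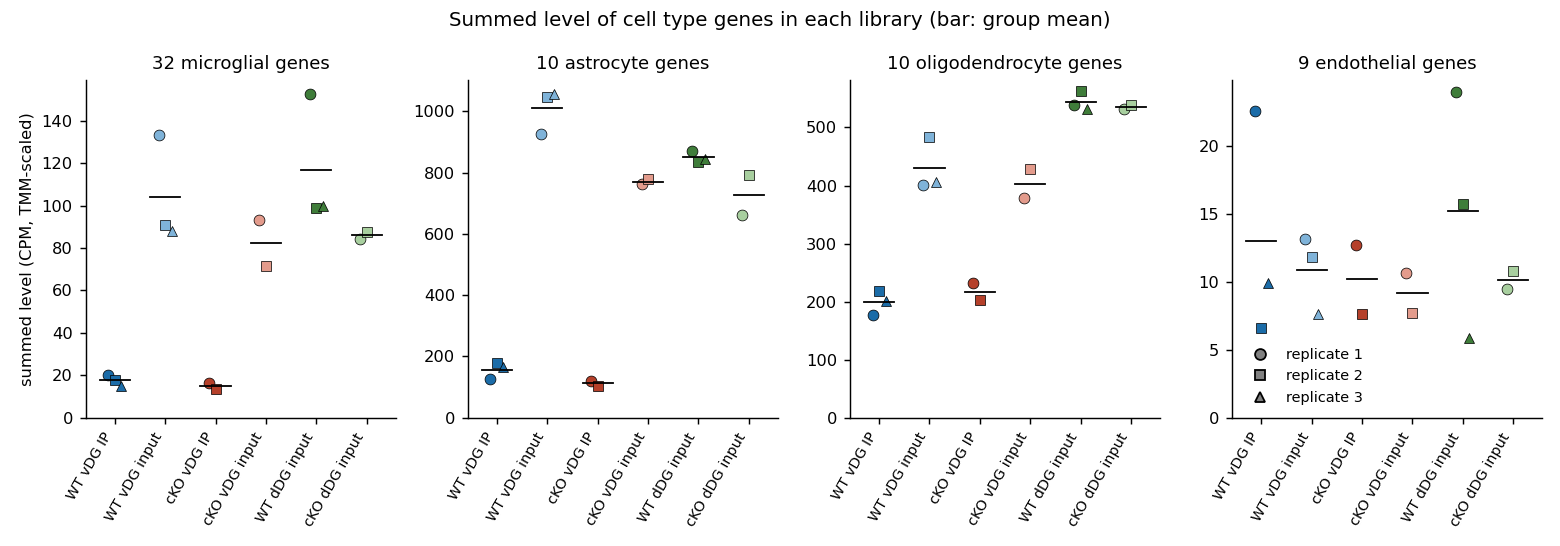
Summed level (CPM, TMM-scaled) of the 32 microglial genes and of astrocyte, oligodendrocyte and endothelial genes in each of the 15 libraries, with 1 point per library, shape by replicate number and a bar at the group mean. The microglial sum was 14.8 to 20.4 CPM in the 3 WT IP libraries and 88.2 to 133 CPM in the 3 WT vDG input libraries, and replicate 1 was the highest of each WT input group.

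Levels of different genes were compared only per kilobase of the principal transcript, in WT vDG input. *C1qb*, a chain of the complement recognition molecule C1q, was the highest at 6.76, 4.22 and 4.78 CPM per kb (mean 5.25 ± 1.33 SD, n = 3). *Ctss*, the lysosomal protease cathepsin S, stood at 8.14, 3.39 and 3.46 CPM per kb (mean 5.0 ± 2.72). *C1qc*, *P2ry12* and *Fcer1g* came next, with means of 3.39, 3.31 and 3.23 CPM per kb. The spread was widest for *Ctss*, for which replicate 1 was more than 2 times as high as either of the others. *Cd33*, *Gpr141* and *Ptprc* were the lowest, with means of 0.236, 0.156 and 0.13 CPM per kb. Neighbours in this order overlapped over the 3 libraries at every step except between *Tyrobp* (3.02) and *Sall1* (2.41 CPM per kb).

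**Figure D2:**
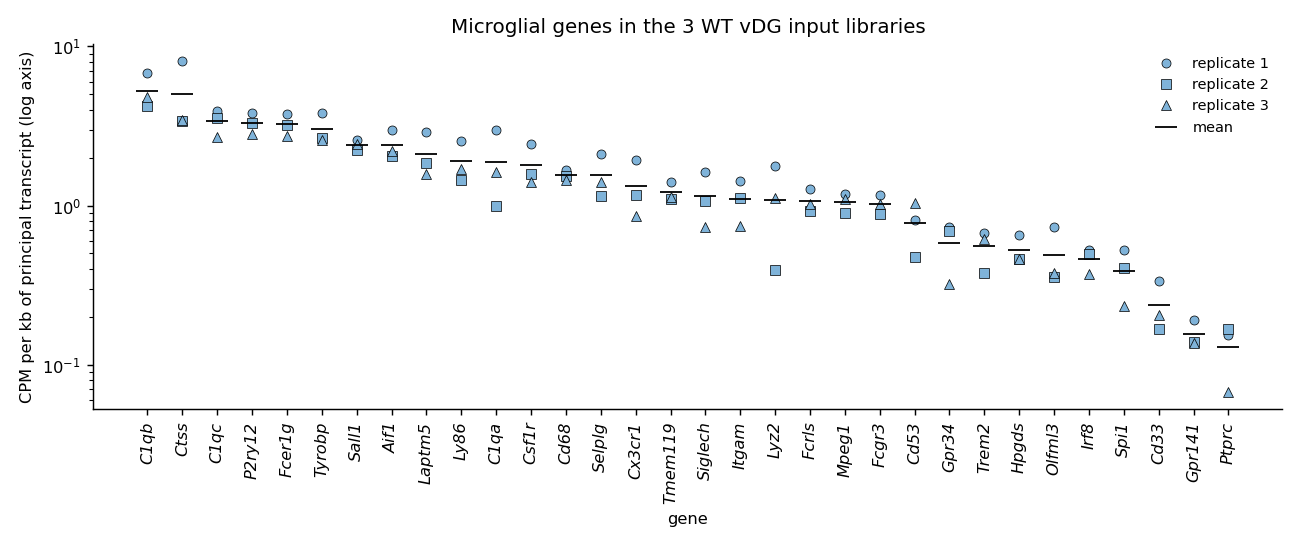
Level of each of the 32 genes in the 3 WT vDG input libraries, in CPM per kb of principal transcript on a log axis, with a bar at the mean and genes ordered by it. Means ran from 5.25 for *C1qb* to 0.13 for *Ptprc*, and the circles of replicate 1 were mostly on top.

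The comparison of IP with input asked how much RNA of untagged cells the pull-down left behind. Of the 31 genes with enough counts to test in WT (*Ptprc* had too few), 30 were lower in the IP and 28 were called depleted, that is, under 0.5 of the input level with a false discovery rate (FDR) under 0.05 by edgeR. Over all 15011 genes tested, 11.4% were called depleted in WT. The median log2 fold change of the 31 genes was -3.19, against 0.00 over all genes. In cKO 29 genes were tested, 29 were lower and 21 were called depleted, against 10.7% of 15126 genes. Their median was -2.71 against -0.03 over all genes. *Trem2*, *Ptprc* and *Gpr141* had too few counts to test in cKO. Of these, *Ptprc* had a higher level in the IP, 168% of the input on 2 and 11 against 3 and 6 counts. Genes near 0 in the IP passed the count filter through their input counts. The 21 genes depleted in cKO were also depleted in WT. The IP held 16.9% of the input's summed level in WT and 18.3% in cKO. All IP libraries lay below all input libraries for 29 of 31 genes in WT, the exceptions being *Lyz2* and *Gpr141*, and for 28 of 29 in cKO, the exception being *Cd68*, while 23.5% of all genes in WT and 34.8% in cKO were separated in that direction. The WT vDG input libraries serve here and in the region and genotype comparisons, so those comparisons share samples. Without WT vDG input replicate 1, 25 genes were called depleted in WT. Without cKO vDG input replicate 1, which left that group with 1 library, 12 were called in cKO and the median was -2.29. Where leaving out a library ended a call in cKO, as given below for single genes, the fitted log2 fold change stayed between -4.79 and -1.17.

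**Figure D3:**
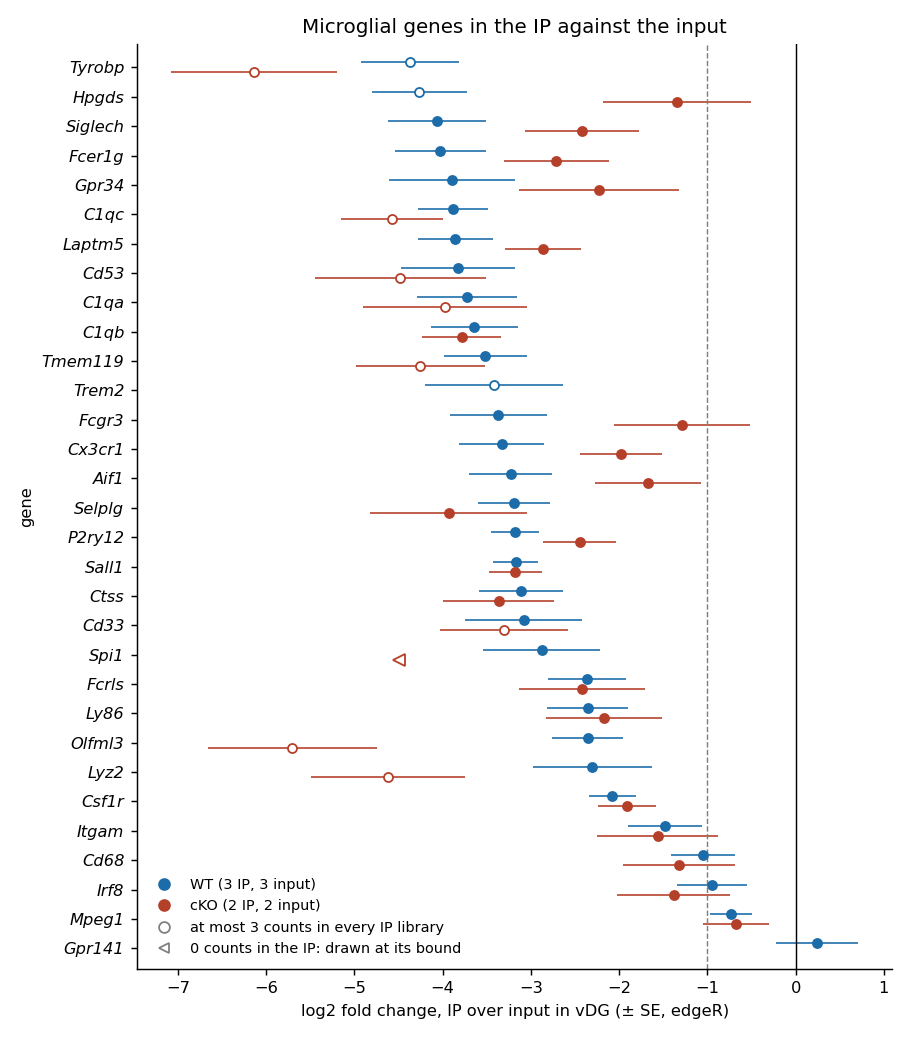
Fitted log2 fold change of each microglial gene in IP over input of vDG (x axis, ± SE, edgeR) for WT (blue, 3 IP and 3 input libraries) and cKO (red, 2 and 2), ordered by the WT value. Open circles mark genes with at most 3 counts in every IP library, whose fitted value depends on the prior count, the triangle marks the bound for *Spi1* in cKO, and the dashed line marks a log2 fold change of -1. *Mpeg1*, *Irf8*, *Cd68* and *Itgam* sat nearest to 0 in WT among the genes that were lower there, and *Gpr141* was at 0.24.

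Among the receptors for signals from neighbouring cells, 4 of 5 were depleted in WT. *Csf1r*, the receptor for CSF1 and IL34 on which microglial survival depends, was at 2.47, 2.07 and 1.6 CPM in the WT IP and at 11.5, 7.41 and 6.58 CPM in the WT vDG input, a log2 change of -2.08 (SE 0.27, FDR = 6.31e-05). *Csf1r* in cKO was at 1.62 and 1.4 CPM in the cKO IP and at 5.56 and 5.36 CPM in the cKO vDG input, a log2 change of -1.91 (SE 0.33, FDR = 0.00126). Its highest IP library was below its lowest input library in both genotypes, and its share of the summed level of the 32 genes was 11.6% in the WT IP and 8.15% in the WT vDG input. *Cx3cr1*, the fractalkine receptor, was at 0.676, 0.994 and 0.117 CPM in the WT IP and at 8.65, 5.25 and 3.86 CPM in the WT vDG input, a log2 change of -3.33 (SE 0.48, FDR = 1.68e-04). *Cx3cr1* in cKO was at 1.05 and 0.979 CPM in the cKO IP and at 5.37 and 2.35 CPM in the cKO vDG input, a log2 change of -1.98 (SE 0.47, FDR = 0.00802). WT IP replicate 3 was far below the other IP libraries for this gene, and its cKO call was lost without cKO vDG input replicate 1 (FDR = 0.306). *P2ry12*, the ADP receptor that steers microglial processes to injury, was at 0.915, 1.07 and 0.624 CPM in the WT IP and at 8.96, 7.72 and 6.62 CPM in the WT vDG input, a log2 change of -3.18 (SE 0.27, FDR = 1.17e-06). *P2ry12* in cKO was at 0.666 and 1.02 CPM in the cKO IP and at 5.21 and 3.75 CPM in the cKO vDG input, a log2 change of -2.45 (SE 0.41, FDR = 0.00107). Its 3 WT input libraries were all above 6 CPM and its 5 IP libraries between 0.624 and 1.07 CPM. *Gpr34*, a receptor for lysophosphatidylserine, was at 0.159, 0.0795 and 0 CPM in the WT IP and at 1.53, 1.44 and 0.67 CPM in the WT vDG input, a log2 change of -3.89 (SE 0.71, FDR = 0.00122). *Gpr34* in cKO was at 0.0476 and 0.213 CPM in the cKO IP and at 0.799 and 0.441 CPM in the cKO vDG input, a log2 change of -2.23 (SE 0.91, FDR = 0.0882), and it was not called there. The fifth, the orphan receptor *Gpr141*, is described below with its raw counts. Reads of *Csf1r*, *Cx3cr1*, *P2ry12* and *Gpr34* are uncertain where *Hmgxb3*, *Wdr48*, *Med12l* and *Cask* overlap them on the opposite strand, since the library kits did not mark strand.

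The 3 genes of complement C1q, which tags debris and synapses for uptake, were depleted in both genotypes. *C1qa* was at 0.119, 0.119 and 0.195 CPM in the WT IP and at 3.1, 1.03 and 1.69 CPM in the WT vDG input, a log2 change of -3.72 (SE 0.57, FDR = 2.90e-04). *C1qa* in cKO was at 0.0476 and 0.0851 CPM in the cKO IP and at 1.56 and 0.624 CPM in the cKO vDG input, a ratio of summed counts, input over IP, of 16.1 (95% counting interval 5.24 to 80.3, FDR = 0.0076). The call in cKO was lost without cKO vDG input replicate 1 (FDR = 0.27). *C1qb* was at 0.318, 0.994 and 0.078 CPM in the WT IP and at 7.35, 4.6 and 5.2 CPM in the WT vDG input, a log2 change of -3.64 (SE 0.49, FDR = 1.00e-04). *C1qb* in cKO was at 0.523 and 0.255 CPM in the cKO IP and at 5.59 and 4.74 CPM in the cKO vDG input, a log2 change of -3.78 (SE 0.45, FDR = 9.03e-05). Among its WT IP libraries replicate 2 was the highest and replicate 3 the lowest, and all were below every input library. *C1qc* was at 0.438, 0.159 and 0.234 CPM in the WT IP and at 4.71, 4.29 and 3.23 CPM in the WT vDG input, a log2 change of -3.88 (SE 0.40, FDR = 6.55e-06). *C1qc* in cKO was at 0.143 and 0.128 CPM in the cKO IP and at 3.27 and 3.12 CPM in the cKO vDG input, a ratio of summed counts, input over IP, of 23.7 (95% counting interval 10.7 to 65.5, FDR = 1.42e-04). For all 3 genes the WT and cKO IP libraries were at or below 1 CPM.

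The immune receptors and adaptors that signal through activating or inhibitory motifs were depleted in 7 of 7 cases in WT. *Trem2*, a lipid-sensing receptor, was at 0.119, 0.0398 and 0 CPM in the WT IP and at 0.728, 0.412 and 0.67 CPM in the WT vDG input, a ratio of summed counts, input over IP, of 11.3 (95% counting interval 4.14 to 43.2, FDR = 0.00581). *Trem2* gave 0 counts in both cKO IP libraries against 0.304 and 0.367 CPM in the cKO vDG input, at least 4.99-fold lower than in the input, and was too low there to be tested. All its IP libraries were below all its input libraries in both genotypes. *Tyrobp*, the adaptor that carries the TREM2 signal, was at 0.119, 0.0795 and 0.039 CPM in the WT IP and at 2.14, 1.51 and 1.46 CPM in the WT vDG input, a ratio of summed counts, input over IP, of 21.5 (95% counting interval 9.63 to 59.6, FDR = 5.78e-05). *Tyrobp* in cKO was at 0.0476 and 0 CPM in the cKO IP and at 2.06 and 1.69 CPM in the cKO vDG input, a ratio of summed counts, input over IP, of 83.2 (95% counting interval 14.6 to 3319, FDR = 0.000586). A single count was left in the cKO IP. *Fcer1g*, the common Fc receptor gamma chain, was at 0.199, 0.0398 and 0.156 CPM in the WT IP and at 2.53, 2.16 and 1.85 CPM in the WT vDG input, a log2 change of -4.03 (SE 0.51, FDR = 5.99e-05). *Fcer1g* in cKO was at 0.238 and 0.468 CPM in the cKO IP and at 1.83 and 2.72 CPM in the cKO vDG input, a log2 change of -2.71 (SE 0.59, FDR = 0.0053). Leaving out cKO vDG input replicate 2 ended the cKO call of *Fcer1g* (FDR = 0.136). *Fcgr3*, a low-affinity receptor for IgG, was at 0.159, 0.0398 and 0.195 CPM in the WT IP and at 1.57, 1.2 and 1.38 CPM in the WT vDG input, a log2 change of -3.37 (SE 0.55, FDR = 0.000512). *Fcgr3* in cKO was at 0.856 and 0.128 CPM in the cKO IP and at 1.41 and 0.881 CPM in the cKO vDG input, a log2 change of -1.29 (SE 0.77, FDR = 0.242), with no call. Its cKO IP replicate 1 came close to cKO vDG input replicate 2, and reads shared with *Fcgr2b* or *Fcgr4* could not be separated.

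The other 3 of these receptors showed the same direction. *Siglech*, a sialic acid-binding lectin, was at 0.239, 0.0398 and 0.156 CPM in the WT IP and at 3.48, 2.3 and 1.58 CPM in the WT vDG input, a log2 change of -4.06 (SE 0.55, FDR = 1.07e-04). *Siglech* in cKO was at 0.238 and 0.34 CPM in the cKO IP and at 1.9 and 1.14 CPM in the cKO vDG input, a log2 change of -2.42 (SE 0.65, FDR = 0.0156). The IP libraries of both genotypes were all below 0.4 CPM, and the cKO call was lost without either cKO vDG input library (FDR = 0.340 and 0.0894). *Cd33*, an inhibitory sialic acid-binding lectin, was at 0.279, 0 and 0.195 CPM in the WT IP and at 1.91, 0.96 and 1.18 CPM in the WT vDG input, a log2 change of -3.08 (SE 0.66, FDR = 0.0038). *Cd33* in cKO was at 0.143 and 0.128 CPM in the cKO IP and at 1.22 and 1.43 CPM in the cKO vDG input, a ratio of summed counts, input over IP, of 9.85 (95% counting interval 4.31 to 27.7, FDR = 0.00537). Its cKO call was likewise lost without cKO vDG input replicate 1 or 2 (FDR = 0.101 and 0.141), at log2 fold changes of -3.40 and -3.18. *Fcrls*, an Fc receptor-like molecule, was at 0.796, 0.239 and 0.39 CPM in the WT IP and at 2.87, 2.09 and 2.32 CPM in the WT vDG input, a log2 change of -2.37 (SE 0.44, FDR = 0.00134). *Fcrls* in cKO was at 0.0951 and 0.511 CPM in the cKO IP and at 1.83 and 1.4 CPM in the cKO vDG input, a log2 change of -2.42 (SE 0.71, FDR = 0.0244). WT IP replicate 1 and cKO IP replicate 2 were its highest IP libraries, and without cKO IP replicate 1 the cKO call was lost (FDR = 0.0505), as it was without cKO vDG input replicate 1 or 2 (FDR = 0.266 and 0.136).

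Of the adhesion and other surface molecules, 5 of 5 tested were depleted in WT. *Tmem119*, a membrane protein much used as a microglial marker, was at 0.119, 0.437 and 0.156 CPM in the WT IP and at 3.14, 2.47 and 2.52 CPM in the WT vDG input, a log2 change of -3.51 (SE 0.47, FDR = 8.66e-05). *Tmem119* in cKO was at 0.0951 and 0.0851 CPM in the cKO IP and at 1.79 and 1.69 CPM in the cKO vDG input, a ratio of summed counts, input over IP, of 19.3 (95% counting interval 7.31 to 72.5, FDR = 0.00121). *Selplg*, a selectin ligand, was at 0.358, 0.318 and 0.273 CPM in the WT IP and at 3.91, 2.13 and 2.6 CPM in the WT vDG input, a log2 change of -3.19 (SE 0.41, FDR = 5.99e-05). In both genotypes the IP libraries of *Tmem119* and *Selplg* stayed below 0.5 CPM. *Selplg* in cKO was at 0.238 and 0 CPM in the cKO IP and at 2.06 and 1.43 CPM in the cKO vDG input, a log2 change of -3.93 (SE 0.89, FDR = 0.00635). *Cd53*, a tetraspanin, was at 0.0398, 0.199 and 0.039 CPM in the WT IP and at 1.42, 0.823 and 1.81 CPM in the WT vDG input, a log2 change of -3.82 (SE 0.65, FDR = 0.000668). *Cd53* in cKO was at 0 and 0.128 CPM in the cKO IP and at 2.21 and 0.881 CPM in the cKO vDG input, a ratio of summed counts, input over IP, of 22.7 (95% counting interval 7.51 to 113, FDR = 0.00498). Without cKO vDG input replicate 1 both *Selplg* and *Cd53* lost their cKO call (FDR = 0.126 and 0.179). *Ly86*, the partner protein of an endotoxin receptor relative, was at 0.597, 0.477 and 0.195 CPM in the WT IP and at 2.87, 1.65 and 1.93 CPM in the WT vDG input, a log2 change of -2.36 (SE 0.46, FDR = 0.00184). *Ly86* in cKO was at 0.666 and 0.34 CPM in the cKO IP and at 3.27 and 1.1 CPM in the cKO vDG input, a log2 change of -2.17 (SE 0.66, FDR = 0.0277). Its cKO vDG input replicate 1 was well above replicate 2, and without it the call was lost (FDR = 0.572). *Itgam*, the integrin chain CD11b, was at 3.02, 0.596 and 1.95 CPM in the WT IP and at 6.63, 5.18 and 3.47 CPM in the WT vDG input, a log2 change of -1.48 (SE 0.42, FDR = 0.0198). *Itgam* in cKO was at 1.95 and 0.255 CPM in the cKO IP and at 4.3 and 1.91 CPM in the cKO vDG input, a log2 change of -1.56 (SE 0.68, FDR = 0.11), with no call. Its IP libraries varied widely in both genotypes, and without WT vDG input replicate 1 the WT call was lost (FDR = 0.102). With all libraries kept, *Itgam* was called in cKO with the replicate number as a block (FDR = 0.00139) and without the count filter (FDR = 0.0039). Without cKO IP replicate 1 its log2 fold change in cKO was -3.59. *Ptprc*, the leukocyte phosphatase CD45, had only 4, 2 and 1 counts in the WT IP and 19, 23 and 8 counts in the WT vDG input. In cKO it had 2 and 11 counts in the IP and 3 and 6 in the vDG input, so IP replicate 2 was the highest of the 4 cKO libraries. It was tested in neither genotype.

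Enzymes and proteins of the lysosome, cytoplasm and secretory pathway were lower in the WT IP for every gene tested, and all but *Mpeg1* were called depleted. *Ctss* was at 1.39, 0.239 and 0.741 CPM in the WT IP and at 11, 4.6 and 4.69 CPM in the WT vDG input, a log2 change of -3.11 (SE 0.48, FDR = 3.08e-04). *Ctss* in cKO was at 0.951 and 0.0851 CPM in the cKO IP and at 5.97 and 4.11 CPM in the cKO vDG input, a log2 change of -3.36 (SE 0.63, FDR = 0.00211). WT vDG input replicate 1 and WT IP replicate 1 were each the highest of their group, and DESeq2 did not call the gene in cKO (adjusted p = 0.0576). *Laptm5*, a lysosomal membrane protein of blood-lineage cells, was at 0.239, 0.716 and 0.195 CPM in the WT IP and at 7.54, 4.84 and 4.1 CPM in the WT vDG input, a log2 change of -3.85 (SE 0.43, FDR = 1.55e-05). *Laptm5* in cKO was at 0.714 and 0.723 CPM in the cKO IP and at 6.51 and 3.6 CPM in the cKO vDG input, a log2 change of -2.86 (SE 0.43, FDR = 4.93e-04). All 5 IP libraries were below 0.8 CPM. *Hpgds*, which makes prostaglandin D, was at 0.119, 0.0398 and 0.117 CPM in the WT IP and at 2.26, 1.61 and 1.62 CPM in the WT vDG input, a ratio of summed counts, input over IP, of 19.8 (95% counting interval 9.36 to 50.05, FDR = 5.21e-05). *Hpgds* in cKO was at 0.0476 and 0.723 CPM in the cKO IP and at 1.03 and 0.918 CPM in the cKO vDG input, a log2 change of -1.35 (SE 0.84, FDR = 0.262), with no call. In cKO, IP replicate 2 was close to the input libraries and IP replicate 1 far below them. *Aif1*, which encodes the microglial stain IBA1, was at 0.159, 0.358 and 0.156 CPM in the WT IP and at 2.6, 1.78 and 1.93 CPM in the WT vDG input, a log2 change of -3.23 (SE 0.47, FDR = 1.88e-04). *Aif1* in cKO was at 0.618 and 0.383 CPM in the cKO IP and at 1.86 and 1.21 CPM in the cKO vDG input, a log2 change of -1.67 (SE 0.60, FDR = 0.0553), just outside the FDR limit. It was called with library size in place of TMM scaling (FDR = 0.0393), without the count filter (FDR = 0.0418) and in a single fit of the 6 groups (FDR = 0.0329). Without cKO IP replicate 1 its log2 fold change in cKO was -2.01.

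*Olfml3*, a secreted glycoprotein, was at 0.517, 0.596 and 0.468 CPM in the WT IP and at 4.02, 1.95 and 2.05 CPM in the WT vDG input, a log2 change of -2.36 (SE 0.41, FDR = 0.00076). *Olfml3* in cKO was at 0.0951 and 0 CPM in the cKO IP and at 3.69 and 1.36 CPM in the cKO vDG input, a ratio of summed counts, input over IP, of 55.7 (95% counting interval 15.1 to 465, FDR = 0.00107). Without cKO vDG input replicate 1 that call was lost (FDR = 0.0643). *Lyz2*, lysozyme of macrophages, was at 0.597, 0.0795 and 0.195 CPM in the WT IP and at 2.34, 0.514 and 1.46 CPM in the WT vDG input, a log2 change of -2.30 (SE 0.67, FDR = 0.0225). *Lyz2* in cKO was at 0 and 0.128 CPM in the cKO IP and at 1.75 and 1.65 CPM in the cKO vDG input, a ratio of summed counts, input over IP, of 25.2 (95% counting interval 8.37 to 125, FDR = 0.00226). Its WT groups overlapped, since WT vDG input replicate 2 was below WT IP replicate 1, and its WT call was lost without WT IP replicate 2 (FDR = 0.0957), WT vDG input replicate 1 (FDR = 0.144) or WT vDG input replicate 3 (FDR = 0.0632). Reads shared with its paralog *Lyz1* could not be separated. *Cd68*, a glycoprotein of the late endosome, was at 0.875, 1.23 and 0.702 CPM in the WT IP and at 2.07, 1.89 and 1.77 CPM in the WT vDG input, a log2 change of -1.05 (SE 0.36, FDR = 0.0491). *Cd68* in cKO was at 1.28 and 0.468 CPM in the cKO IP and at 1.1 and 3.08 CPM in the cKO vDG input, a log2 change of -1.32 (SE 0.63, FDR = 0.145), with overlapping groups. The WT call of *Cd68* was marginal: it was lost without any 1 of the 3 input libraries (FDR = 0.144, 0.119 and 0.0971), without WT IP replicate 1 or 3 (FDR = 0.0977 and 0.104), and by DESeq2 (adjusted p = 0.0606). In edgeR it was also lost with the replicate number as a block (FDR = 0.0682) and with DESeq2 size factors (FDR = 0.0507). The same held without the count filter (FDR = 0.0524) and in a single fit of the 6 groups (FDR = 0.0577).

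*Mpeg1*, the pore-forming perforin of macrophages, kept more of its input level in the WT IP than any other gene of the list that was lower there. It was at 2.9, 3.1 and 2.42 CPM in the WT IP and at 5.09, 3.91 and 4.77 CPM in the WT vDG input, a log2 change of -0.73 (SE 0.24, FDR = 0.0369). The IP thus held 61.2% of the input level, above the limit of 0.5 for depletion, although all 3 IP libraries were below all 3 inputs. *Mpeg1* in cKO was at 2.76 and 1.7 CPM in the cKO IP and at 3.77 and 3.08 CPM in the cKO vDG input, a log2 change of -0.68 (SE 0.37, FDR = 0.206). Its share of the summed level of the 32 genes was 16.0% in the WT IP against 4.41% in the WT vDG input, and 14.8% against 4.16% in cKO.

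Of the transcription factors, *Sall1* and *Spi1* were depleted in both genotypes and *Irf8* in neither. *Sall1*, a zinc finger factor that keeps microglia in their resting state, was at 0.836, 1.83 and 1.64 CPM in the WT IP and at 13.6, 11.7 and 12.8 CPM in the WT vDG input, a log2 change of -3.17 (SE 0.25, FDR = 6.12e-07). *Sall1* in cKO was at 1.05 and 1.87 CPM in the cKO IP and at 12.9 and 12.7 CPM in the cKO vDG input, a log2 change of -3.18 (SE 0.30, FDR = 1.27e-05). Its input libraries were all between 8 and 14 CPM across both regions and genotypes, and its IP held 11.3% of the WT input and 11.4% of the cKO input. *Spi1*, encoding PU.1, the ETS factor that specifies macrophages, was at 0.199, 0.0398 and 0.078 CPM in the WT IP and at 1.07, 0.823 and 0.473 CPM in the WT vDG input, a log2 change of -2.88 (SE 0.66, FDR = 0.00587). *Spi1* gave 0 counts in both cKO IP libraries against 1.83 and 1.21 CPM in the cKO vDG input, at least 22.5-fold lower than in the input (FDR = 0.000858). *Irf8*, a PU.1 partner, was at 0.557, 0.755 and 0.78 CPM in the WT IP and at 1.49, 1.41 and 1.06 CPM in the WT vDG input, a log2 change of -0.95 (SE 0.40, FDR = 0.10). *Irf8* in cKO was at 0.285 and 0.638 CPM in the cKO IP and at 1.18 and 1.17 CPM in the cKO vDG input, a log2 change of -1.38 (SE 0.64, FDR = 0.129), so the groups did not overlap but neither test passed the limit.

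Since PU.1 binds GAGGAAGT-type sites in macrophage promoters, the RefSeq promoter windows (GRCm38.p6, 250 bases before to 50 after the start) were searched for these letters on both strands. Windows were held for 25 of the 32 genes. GAGGAAGT was present in 4 of the 25 (16%) and in 3.69% of 27025 genes. The shorter forms GAGGAAG and AGGAAGT, which lie within it, were each present in 10 of 25 (40%), against 15.4% and 10.7% of all genes. The 4 windows with the full motif are shown, those of *Ctss*, *Cd53*, *C1qc* and *Hpgds*. Depletion in the WT IP was common to 28 genes of the list and is not particular to these 4. Capitals mark the motif, which reads ACTTCCTC where it lies on the opposite strand, and sequences run 5′ to 3′ on the gene's strand. Ctss is chr3:95526536-95526835, plus strand, with the motif across the start, its first base 2 bases before it. Cd53 is chr3:106790100-106790399, minus strand, with the motif's first base 6 bases after the start. C1qc is chr4:136892865-136893164, minus strand, with the motif's first base 195 bases before the start, and Hpgds is chr6:65144681-65144980, minus strand, with the motif's first base 49 bases before the start.
Ctss: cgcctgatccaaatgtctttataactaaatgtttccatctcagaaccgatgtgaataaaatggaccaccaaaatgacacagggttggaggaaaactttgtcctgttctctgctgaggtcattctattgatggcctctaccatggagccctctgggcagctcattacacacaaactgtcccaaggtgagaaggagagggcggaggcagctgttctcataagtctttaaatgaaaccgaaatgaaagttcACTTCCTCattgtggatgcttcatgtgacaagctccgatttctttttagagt
Cd53: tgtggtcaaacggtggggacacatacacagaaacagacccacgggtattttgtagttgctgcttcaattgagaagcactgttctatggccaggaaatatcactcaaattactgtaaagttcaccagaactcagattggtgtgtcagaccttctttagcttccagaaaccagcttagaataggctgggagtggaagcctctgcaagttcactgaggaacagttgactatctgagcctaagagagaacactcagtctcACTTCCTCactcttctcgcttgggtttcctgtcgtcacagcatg
C1qc: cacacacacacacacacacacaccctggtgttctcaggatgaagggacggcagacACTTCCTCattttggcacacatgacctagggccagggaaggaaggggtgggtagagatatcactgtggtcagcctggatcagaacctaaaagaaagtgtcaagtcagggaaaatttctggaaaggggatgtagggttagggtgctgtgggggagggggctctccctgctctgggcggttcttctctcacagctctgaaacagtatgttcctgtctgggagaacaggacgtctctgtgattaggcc
Hpgds: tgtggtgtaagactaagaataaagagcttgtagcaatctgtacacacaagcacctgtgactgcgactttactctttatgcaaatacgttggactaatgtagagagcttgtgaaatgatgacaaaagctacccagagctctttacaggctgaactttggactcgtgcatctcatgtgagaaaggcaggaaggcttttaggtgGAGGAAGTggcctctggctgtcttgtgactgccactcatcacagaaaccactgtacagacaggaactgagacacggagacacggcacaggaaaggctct

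Other cell types and pathways were read against the same IP, with log2 fold changes in parentheses. These counts are to be read against the 11.4% of all genes called depleted in WT and 10.7% in cKO, and no list was tested against that share. Of 20 other microglia-enriched genes, 11 of 17 tested were depleted in WT, led by *Entpd1* (-2.97), *P2ry13* (-3.74) and *Rgs10* (-2.28), and 8 of 17 in cKO, led by *Entpd1* (-2.97), *Rgs10* (-2.2) and *Bin2* (-4.86). None was enriched. Of the signalling genes downstream of TREM2, TYROBP and Fc receptors, 1 of 6 tested was depleted in WT, the kinase *Lyn* (-2.55), and 2 of 6 in cKO, *Lyn* (-1.47) and the phosphatase *Inpp5d* (-1.64). Of other complement genes, 1 of 7 was depleted in WT, the receptor *C3ar1* (-3.06), and 1 of 5 in cKO, properdin *Cfp* (-2.0). Of ligands and partners of microglial receptors, *Cx3cl1* (0.42), the fractalkine ligand made by neurons, was enriched and *Tgfb1* (-3.61) depleted among 7 in WT, and *Cx3cl1* (0.6) alone was enriched among 6 in cKO. Of genes of microglial activation, 6 of 10 were depleted in WT, led by *Apoe* (-3.59), *Axl* (-2.61) and *Cd63* (-2.72), and 5 of 10 in cKO, led by *Apoe* (-3.71), *Axl* (-3.05) and *Cd63* (-1.99). Of interferon response genes, *Ifitm3* (-3.04) and *Ifit1* (-2.98) were depleted among 6 in WT, and *Ifitm3* (-3.67) and *Oasl2* (-2.21) among 6 in cKO. Of MHC class II genes, 0 of 2 were called in WT and *Ciita* (-1.46) of 2 was depleted in cKO.

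Markers of other non-neuronal cells were unevenly depleted. All 10 astrocyte genes were depleted in both genotypes, with medians of -2.85 in WT and -2.85 in cKO, led by *Gfap* (-3.0), *S100b* (-3.88) and *Gjb6* (-3.49) in WT and *Aldoc* (-2.98), *S100b* (-3.99) and *Slc1a3* (-2.35) in cKO. Of 10 oligodendrocyte genes 9 were depleted in both, among them *Mal* (-3.54) and *Mobp* (-2.51) in WT and *Mobp* (-2.47) and *Cnp* (-1.7) in cKO. None of 8 endothelial genes was called in either, with medians of 0.08 and -0.20. Of 3 choroid plexus genes, transthyretin was depleted, *Ttr* (-2.94) in WT and *Ttr* (-4.21) in cKO. Granule cell genes were enriched in 3 of 8 cases in WT, *C1ql2* (0.59), *Grm2* (0.52) and *Dsp* (0.71), and in 7 of 8 in cKO, led by *Dsp* (1.33), *Calb1* (0.59) and *C1ql2* (0.65), where 7.72% of all genes were called enriched in WT and 11.4% in cKO. Border-associated macrophage genes were not called in WT (0 of 4) or cKO (0 of 5), and their sum was only 1.47 to 5.59 CPM over all libraries. Monocyte and granulocyte genes, 1 of which could be tested and was not called, summed to 0.664 to 2.34 CPM with *Ly6c2* and *Plac8* at 0 in every group, and lymphocyte genes, none tested, to at most 0.664 CPM with *Ms4a1* at 0 in every group. The part of other macrophages in the microglial sum was not tested.

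Ventral and dorsal input were compared within each genotype. No microglial gene was called at FDR under 0.05 by edgeR in WT, where 32 were tested and 15.3% of all 15412 genes were called in either direction, or in cKO, where 29 were tested and 17.0% of 15505 were called. DESeq2 called 0 in WT and 0 in cKO. These fits had no replicate block, and with the replicate number as a block *Cd33* was called lower in WT vDG (FDR = 0.049), and *P2ry12* lower (FDR = 0.0273) and *Sall1* higher (FDR = 0.0286) in cKO vDG. In cKO, *P2ry12* (FDR = 0.0429) and *Sall1* (FDR = 0.0498) also passed without the count filter, and *Sall1* (FDR = 0.0313) with library size in place of TMM scaling. At an unadjusted p under 0.05 there were 2 genes in WT and 2 in cKO, against 27.2% and 30.3% of all genes. In WT, 9 genes were higher and 23 lower in vDG, with a median log2 fold change of -0.18 against -0.01 over all genes. That median rested on WT dDG input replicate 1, without which it was 0.06. In cKO, 9 were higher and 20 lower with a median of -0.12, which was 0.08 without cKO vDG input replicate 2.

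The genes nearest to a call were these. *Mpeg1* was at 5.09, 3.91 and 4.77 CPM in WT vDG and 7.63, 4.75 and 7.23 CPM in WT dDG input, a log2 change of -0.52 (SE 0.22, FDR = 0.124). *Cd33* was at 1.91, 0.96 and 1.18 CPM in WT vDG and 3.73, 2.08 and 1.77 CPM in WT dDG input, a log2 change of -0.90 (SE 0.37, FDR = 0.124). The 2 regions overlapped for both genes. *Sall1* was at 12.9 and 12.7 CPM in cKO vDG and 9.84 and 8.18 CPM in cKO dDG input, a log2 change of 0.50 (SE 0.18, FDR = 0.0587). *P2ry12* was at 5.21 and 3.75 CPM in cKO vDG and 6.99 and 6.87 CPM in cKO dDG input, a log2 change of -0.64 (SE 0.23, FDR = 0.0606). Both pairs of libraries were separate there. Without cKO vDG input replicate 1, *P2ry12* passed the limit (FDR = 0.00801). The 5 genes highest per kb had no separate ranges in WT: in dDG input *C1qb* was at 10.5, 6.49 and 4.15 CPM, *Ctss* at 12.1, 7.33 and 5.63 CPM and *C1qc* at 7.46, 3.66 and 4.61 CPM, each range overlapping that of vDG. *P2ry12* at 12.9, 7.28 and 8.96 CPM and *Fcer1g* at 3.41, 1.58 and 1.8 CPM in WT dDG input also overlapped their vDG values.

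Genes outside the list were called between regions as follows, to be read against the 15.3% of all genes called in WT and 17.0% in cKO, and no list was tested against that share. Of other microglia-enriched genes 2 of 19 were lower in WT vDG, *Cyth4* (-0.65) and *Rgs10* (-0.71), and 0 of 19 in cKO. Of the TREM2, TYROBP and Fc receptor signalling genes *Lcp2* (1.7) was higher and *Blnk* (-1.62) lower among 6 in WT, and *Blnk* (-2.31) lower among 6 in cKO. Among the ligands *Cd200* (0.71) and *Il34* (1.1), the second ligand of CSF1R, were higher in WT vDG, 2 of 7 tested. In cKO *Il34* (1.01) was higher and *Csf1* (-0.6) and *Cd47* (-0.44) were lower among 6. Activation genes gave 2 higher and 2 lower of 11 in WT, led by *Gpnmb* (-1.84), *Lpl* (1.88) and *Ctsz* (-0.92), and 3 lower of 10 in cKO, *Gpnmb* (-1.92), *Ctsz* (-1.18) and *B2m* (-0.48). No complement, MHC class II, border macrophage, monocyte, lymphocyte or endothelial gene was called in either genotype, and of interferon genes *Ifitm3* (-1.04) was lower in WT. Astrocyte genes gave 2 higher of 10 in WT, *Aldoc* (0.46) and *Sox9* (0.63), and *Aldoc* (0.4) higher and *Aqp4* (-0.58) lower in cKO. Oligodendrocyte genes were lower in vDG in 6 of 10 cases in WT, among them *Cldn11* (-1.2) and *Mal* (-0.59), and in 4 of 10 in cKO, among them *Mal* (-0.98) and *Mobp* (-0.6). Choroid plexus genes gave 3 lower of 5 in WT, *Ttr* (-4.12), *Clic6* (-2.96) and *Sostdc1* (-1.19), and *Ttr* (1.46) higher of 3 in cKO. Granule cell genes gave 1 higher and 5 lower of 8 in WT, led by *Grm2* (-1.21), *Dsp* (-1.58) and *Nrgn* (-0.85), and 5 lower of 8 in cKO, led by *Dsp* (-2.23), *Grm2* (-0.83) and *Prox1* (-0.55).

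The cKO was compared with WT to ask whether loss of *Htr4* from dentate neurons went with a change in microglial transcripts. Most of the genes were lower in cKO input, and only *Gpr141* passed the test. Unlike most of the list, *Gpr141* was not depleted in the WT IP, where it was at 121% of its input level (log2 fold change 0.24). Which cells its reads came from was not tested. In vDG input 32 were tested, 24 were lower and 1 was called lower at FDR under 0.05, where 2.33% of 15786 genes were called lower, and the median log2 fold change was -0.41 against 0.01 over all genes. In dDG input 31 were tested, 26 were lower and 0 were called by edgeR, where 0.026% of 15383 genes were called lower, and the median was -0.48 against -0.02. DESeq2 called 1 in vDG (*P2ry12*) and 0 in dDG input and gave *Gpr141* no adjusted p, and at an unadjusted p under 0.05 there were 8 and 9 genes, against 14.8% and 12.2% of all genes. In the vDG IP, 15 were tested, 11 were lower and 1 was called at FDR under 0.1, where 0.35% of 14300 genes were called lower, with a median of -0.34 against 0.00. With the replicate number as a block, *P2ry12* (FDR = 0.034) and *Itgam* (FDR = 0.0435) were also called lower in vDG input and *Gpr141* (FDR = 0.0418) in dDG input, and the IP call of *Gpr141* was lost (FDR = 0.193). All cKO libraries lay below all WT libraries for 10 of 32 genes in vDG input and 12 of 31 in dDG input, while 18.1% and 15.5% of all genes were separated in that direction. These medians moved with the WT replicate 1 libraries described above: without WT vDG input replicate 1 the vDG median was -0.23, and without WT dDG input replicate 1 the dDG median was -0.23. They also moved the other way, to -0.67 in vDG without cKO vDG input replicate 1 and to -0.61 in dDG without WT dDG input replicate 2.

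**Figure D4:**
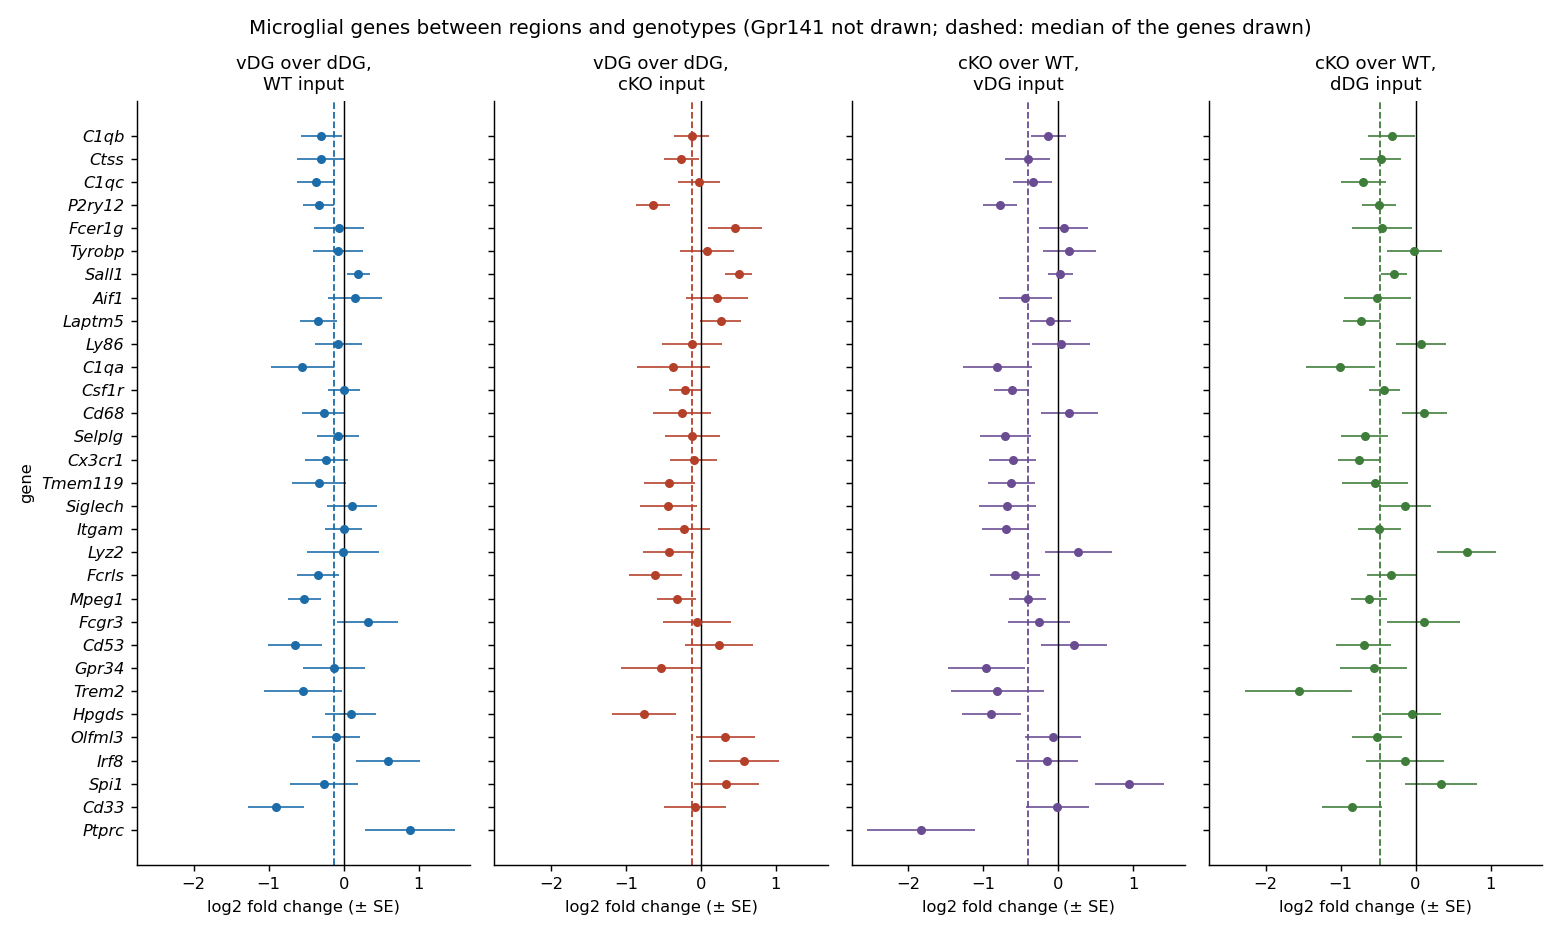
Log2 fold change (x axis, ± SE, edgeR) of each microglial gene in 4 input comparisons, vDG over dDG in WT and cKO and cKO over WT in vDG and dDG, with genes in the order of their level per kb and a dashed line at the median of the genes drawn (*Gpr141*, at 0 in cKO, is left out). The medians were -0.13 and -0.12 for region and -0.41 and -0.47 for genotype, and no gene drawn passed the FDR limit in these fits, which had no replicate block.

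*P2ry12* was closest to a call after *Gpr141*. It was at 8.96, 7.72 and 6.62 CPM in WT and 5.21 and 3.75 CPM in cKO vDG input, a log2 change of -0.78 (SE 0.23, FDR = 0.0638), and DESeq2 called it (adjusted p = 0.0446). In dDG input it was at 12.9, 7.28 and 8.96 CPM in WT and 6.99 and 6.87 CPM in cKO, a log2 change of -0.49 (SE 0.23, FDR = 0.407). Both cKO libraries were below all WT libraries in each region. *Cx3cr1* was at 9.79, 4.55 and 6.38 CPM in WT and 4.06 and 4.16 CPM in cKO dDG input, a log2 change of -0.75 (SE 0.28, FDR = 0.303). *Csf1r* was at 11.5, 7.41 and 6.58 CPM in WT and 5.56 and 5.36 CPM in cKO vDG input, a log2 change of -0.62 (SE 0.23, FDR = 0.18). The cKO libraries of these 2 receptors were separate from WT in those comparisons too. Among the C1q genes, *C1qb* differed least in vDG input, at 7.35, 4.6 and 5.2 CPM in WT and 5.59 and 4.74 CPM in cKO vDG input, a log2 change of -0.13 (SE 0.24, FDR = 0.842). *C1qc* in dDG input was at 7.46, 3.66 and 4.61 CPM in WT and 3.55 and 2.9 CPM in cKO, a log2 change of -0.70 (SE 0.30, FDR = 0.37). *Ctss* overlapped between genotypes in both regions, with a log2 change of -0.41 (SE 0.30, FDR = 0.555) in vDG and a log2 change of -0.46 (SE 0.27, FDR = 0.524) in dDG input.

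Some genes were not lower in cKO vDG input. *Sall1* was at 13.6, 11.7 and 12.8 CPM in WT and 12.9 and 12.7 CPM in cKO vDG input, a log2 change of 0.03 (SE 0.17, FDR = 0.958). *Tyrobp* was at 2.14, 1.51 and 1.46 CPM in WT and 2.06 and 1.69 CPM in cKO vDG input, a log2 change of 0.15 (SE 0.35, FDR = 0.889). *Spi1* was at 1.07, 0.823 and 0.473 CPM in WT and 1.83 and 1.21 CPM in cKO vDG input, a log2 change of 0.95 (SE 0.46, FDR = 0.336). Both cKO libraries of *Spi1* were above all WT libraries. *Fcer1g* was at 1.83 and 2.72 CPM in cKO vDG input, overlapping its WT values, a log2 change of 0.07 (SE 0.32, FDR = 0.944). In dDG input the values of these 4 genes ran in both directions. *Sall1* was at 11.2, 10.3 and 11.5 CPM in WT and 9.84 and 8.18 CPM in cKO dDG input, with separate groups, a log2 change of -0.29 (SE 0.17, FDR = 0.527), and *Fcer1g* gave a log2 change of -0.45 (SE 0.40, FDR = 0.713). *Tyrobp* gave a log2 change of -0.02 (SE 0.37, FDR = 0.994) and *Spi1* a log2 change of 0.34 (SE 0.48, FDR = 0.841) in dDG input. *Lyz2* in dDG input was at 1.8, 1.68 and 0.851 CPM in WT and 2.15 and 2.43 CPM in cKO, a log2 change of 0.68 (SE 0.40, FDR = 0.523). None of these differences passed the test. The other genes with an unadjusted p under 0.05 were *Itgam*, *Ptprc*, *Selplg* and *Hpgds* in vDG input and *C1qa*, *Trem2*, *Laptm5*, *Selplg* and *Mpeg1* in dDG input, all lower, with log2 fold changes from -1.83 (*Ptprc*) to -0.62 (*Mpeg1*).

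In the IP the genotypes could be compared for few of the genes. *Olfml3* had the largest difference after *Gpr141* among the 15 tested, with 13, 15 and 12 counts in WT and 2 and 0 in cKO, a ratio of summed counts, WT over cKO, of 11.7 (95% counting interval 3.04 to 100.2, FDR = 0.254). The cKO libraries were below all WT libraries, but the gene was not called. *Mpeg1* in the IP gave a log2 change of -0.34 (SE 0.36, FDR = 0.758) and *Csf1r* a log2 change of -0.44 (SE 0.41, FDR = 0.719), with overlapping groups. A test of whether IP over input differed between genotypes called 0 genes of the list and 0 genes in all by edgeR (5 and 497 at an unadjusted p under 0.05). The 6 genes depleted in WT and tested but not called in cKO were thus not shown to differ between genotypes. They were *Aif1*, *Itgam*, *Gpr34*, *Cd68*, *Hpgds* and *Fcgr3*. *Trem2* was depleted in WT and was not tested for depletion in cKO, where its IP counts were 0. Likewise the test of whether cKO over WT differed between regions called 0 of the list, and 0 had an unadjusted p under 0.05.

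Other lists in the genotype comparison were as follows, beside 2.33% of all genes called lower in vDG input, 0.026% in dDG input and 0.35% in the IP. In vDG input, lower genes were called among astrocyte genes, 4 of 10, led by *Slc1a3* (-0.72), *Gja1* (-0.62) and *Aqp4* (-0.59). Activation genes followed with 5 of 11 lower, led by *Apoe* (-0.81), *Lpl* (-1.22) and *Ctsb* (-0.54). In WT IP over input, *Apoe* (-3.59) was depleted, but *Lpl* (-0.09) and *Ctsb* (0.05) were not. Which cells these transcripts came from was not tested. Ligands gave 2 of 7 lower, *Cd200* (-0.5) and *Cd47* (-0.5), granule cell genes 1 of 8, *Dsp* (-0.94), and choroid plexus genes 1 of 5 higher, *Ttr* (1.11). In dDG input *Apoe* (-0.92) alone, 1 of 10 activation genes, was called lower. In the vDG IP no gene of these lists was called, and the other microglia-enriched genes gave 0 of 19, 0 of 19 and 0 of 10 in vDG input, dDG input and vDG IP, with medians of -0.36, -0.46 and -0.24. The signalling, complement, interferon, MHC class II, border macrophage, monocyte, lymphocyte, oligodendrocyte and endothelial lists gave 0 in all 3 comparisons. The astrocyte genes, which summed to 927 to 1056 CPM in WT and 762 to 778 CPM in cKO vDG input, thus had lower sums in cKO beside the lower microglial medians, and their part in the microglial medians was not tested.

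*Gpr141*, an orphan G protein-coupled receptor of myeloid cells, stood out in the IP and genotype comparisons. Its raw counts were 17, 13 and 19 in the WT vDG IP, 17, 14 and 12 in the WT vDG input and 16, 16 and 21 in the WT dDG input. In cKO they were 0 and 0 in the vDG IP, 0 and 0 in the vDG input and 0 and 0 in the dDG input. The gene thus had 12 to 21 counts in each of 9 WT libraries and 0 in each of 6 cKO libraries, and its WT IP and input ranges overlapped, a log2 change of 0.24 (SE 0.46, FDR = 0.744). Against a limit of 3 counts over the cKO group, it was at least 9.58-fold lower in the cKO IP (FDR = 0.0987), at least 9.51-fold lower in the vDG input (FDR = 0.0110) and at least 11.4-fold lower in the dDG input (FDR = 0.0954, not called at 0.05). The FDR of a gene with so few counts moved widely: over 10 alternatives it ran from 0.0113 to 0.908 in the IP, from 0.00166 to 0.221 in vDG input and from 0.000627 to 0.975 in dDG input. The IP call was lost without WT IP replicate 2 or 3 (FDR = 0.174 and 0.125) or cKO IP replicate 1 or 2 (FDR = 0.908 and 0.368), and the vDG input call without cKO vDG input replicate 1 or 2 (FDR = 0.221 and 0.172). In dDG input it was called without WT dDG input replicate 3 (FDR = 0.0350).

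**Figure D5:**
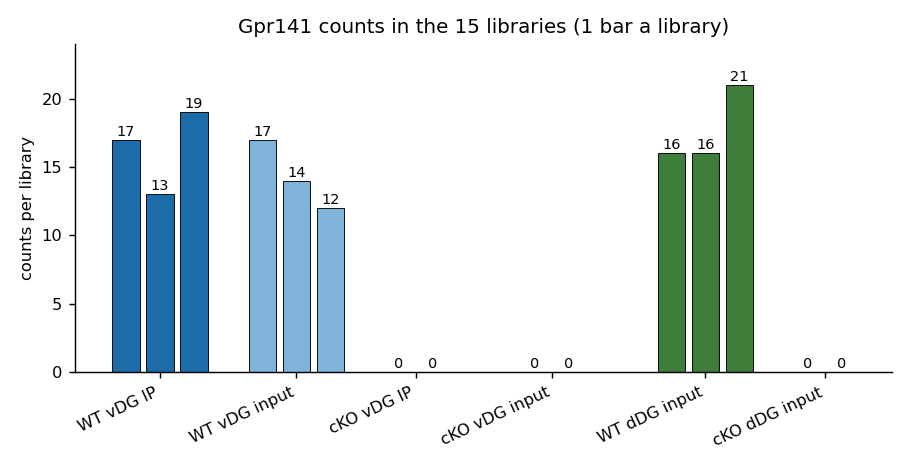
Raw counts of *Gpr141* (y axis) in each of the 15 libraries, 1 bar per library, by group. The 9 WT libraries held 12 to 21 counts and the 6 cKO libraries 0.

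How unusual this pattern was among all genes was looked at after the counts of *Gpr141* had been seen. Of 12952 genes with at least 10 counts in every WT library, 1 was at 0 in every cKO library, and it was *Gpr141*. Of 12909 genes with at least 10 counts in every cKO library, 0 were at 0 in every WT library. *Gpr141* lies at chr13:19749682-19824257 on the minus strand (GENCODE M21, GRCm38), and 12 annotated neighbours within 1 Mb were in the tables. Of these, 6 had counts in every library: *Vps41* had 2874 to 5920 in WT and 3729 to 5776 in cKO, *Amph* 3001 to 6750 and 3445 to 4631, and *Stard3nl* 396 to 736 and 401 to 648. *Epdr1* had 1056 to 1934 in WT and 1043 to 1469 in cKO, *Sfrp4* 6 to 70 and 7 to 56, and *Elmo1* 454 to 1159 and 456 to 1057. The ranges of both genotypes overlapped for all 6, so the absence of reads was seen for *Gpr141* and not for the expressed genes beside it. The RefSeq promoter window of *Gpr141* (chr13:19824208-19824507, GRCm38.p6, minus strand) is shown as the one window of the list whose gene was unread in a genotype. It does not hold the full motif GAGGAAGT on either strand.
Gpr141: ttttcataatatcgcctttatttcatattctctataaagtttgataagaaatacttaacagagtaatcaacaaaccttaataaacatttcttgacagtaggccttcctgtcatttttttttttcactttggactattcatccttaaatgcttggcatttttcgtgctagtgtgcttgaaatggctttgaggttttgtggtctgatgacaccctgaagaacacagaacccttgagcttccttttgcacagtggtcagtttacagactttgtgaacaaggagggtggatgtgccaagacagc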

How the data were processed

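RNA-seq was analysed for 15 libraries grouped by title and genotype. The authors deposited raw read counts per gene, 1 table per library: reads were trimmed with Trim Galore, aligned to mm10 with STAR 2.4.2a and counted with htseq, and the study tested them with DESeq2 1.4.5. Rows that name no gene (24.7 to 37.8% of a library's total) were left out of library sizes. The counts were fitted here with edgeR 4.0.16 in R 4.3.3 (TMM, filterByExpr, quasi-likelihood F-test, two-sided, 2 groups per fit), with Benjamini-Hochberg FDR over all genes tested. The limits followed the study: depleted, under 0.5-fold at FDR 0.05; enriched, at least 1.25-fold at FDR 0.05; cKO over WT in the IP, FDR 0.1. Levels are CPM on TMM-scaled library sizes. DESeq2 1.42.0 and other settings served as alternatives. Every listed gene is named. Library values are given for genes called in a comparison, the 5 highest per kb and *Gpr141*, and other lists by their called counts with at most 3 genes of lowest FDR; some genes of those lists are not reported here. The genes, lists and tests were chosen with earlier results of these data known. No 2 libraries of a group agreed within counting noise. Replicates were taken as separate pools of mice as labelled. Both cKO dDG input libraries have another replicate number in the names of their deposited tables than in their titles. The titles were followed, and the blocked dDG values and the names of the libraries left out depend on that. The p-values measure only the spread between these replicates.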

Additional observations from a re-analysis of the deposited data

How the results depend on the processing

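The counts of genes called were unchanged or within 1.5 times in 96 fits, higher in 15 and lower in 14. With at least 10 counts in every library compared, a filter that by construction removes genes depleted from the IP or at 0 in cKO and so says nothing of the stability of those calls, 6 genes were depleted in WT (median log2 fold change -1.52) and 5 in cKO (-2.02), and 0 were called in cKO over WT in the IP or vDG input. That filter left 9 of the 32 genes to test in IP over input in WT, 7 in cKO and 5 in cKO over WT in the IP. In vDG input it left 29, without *Gpr141*. In the IP, cKO over WT called 0 by DESeq2 or at FDR 0.05, and 2 (*Gpr141*, *Olfml3*) in a single fit of the 6 groups. Keeping every gene with a count, 2 were called in cKO over WT in vDG input, 1 in dDG input and 2 between regions in cKO. With library size only, 1 was called between regions in cKO. At FDR 0.1 the calls were 2 between regions in cKO, 2 in cKO over WT in vDG input and 1 in dDG input. The causes were not tested.

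Leaving out 1 library, where a group left with 1 sample was assumed to vary like the others, gave 25 to 28 depleted genes in WT and 12 to 24 in cKO. It gave 0 to 0 and 0 to 1 genes between regions in WT and cKO (*P2ry12* without cKO vDG input replicate 1, *Cd68* without replicate 2). It gave 0 to 1 in cKO over WT in the IP, 0 to 1 in vDG input and 0 to 1 in dDG input. The median between regions ran from -0.44 to 0.0573 in WT and from -0.46 to 0.0788 in cKO, turning positive without WT dDG input replicate 1 and without cKO vDG input replicate 2. For the 2 interaction tests every fit gave 0.

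The methods take the input RNA from the lysate before the IP, but no label links libraries by replicate number and the labelled pool sizes differ. Over 9276 genes, deviations of same-numbered libraries correlated at 0.464, -0.165 and -0.328 between IP and input and 0.385, -0.112 and 0.224 between regions in WT, at 0.405 between IP and input and 0.16 between regions in cKO, and at -0.191 to -0.00236 between genotypes, so pairing was not established. With the replicate block the calls were 27 and 22 depleted in WT and cKO, 1 (*Cd33*) and 2 (*P2ry12*, *Sall1*) between regions, and in cKO over WT 0 in the IP, 3 (*P2ry12*, *Itgam*, *Gpr141*) in vDG input and 1 (*Gpr141*) in dDG input.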
